A study of Mus musculus with 10 samples.

Results

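The genes described here are 10 imprinted growth genes of the mouse, chosen by name: H19, Igf2, Peg3, Peg10, Meg3, Rian, Dlk1, Grb10, Plagl1 and Cdkn1c. They are 10 of the 47333 gene rows of a table of estimated RNA counts from mouse lung, found by Ensembl identifier through GENCODE M21. Of the 10, 9 were expressed enough to be tested and Dlk1 was not.

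RNA came from the right middle lung lobe of 10 untreated mice of the strain background C57BL/6J, aged 12 weeks. In 5 of them the gene Bpifb1, which encodes a secreted airway protein, was lost (KO, 1 male and 4 females), and 5 were wild type (WT, 2 males and 3 females). The genotypes shared cages, and how the KO allele was made is not given in the sources used here. The study asked how loss of Bpifb1 changes expression, and sex was the other label that differed.

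The libraries held 21357452 to 28321361 counts, and 3 counts, taken as the least that is read as detected, equalled 0.106 to 0.14 CPM before TMM factors. CPM is a library's counts scaled to a common total, and the measured CPM values below include TMM factors. Bpifb1 measured 28.1 to 79.5 CPM in WT and 0.217 to 1.26 CPM in KO mice, so the genotype labels held in all 10 libraries (edgeR log2 ratio -6.55 ± 0.55 SE, adjusted p 0.0275). Xist, which coats and silences 1 X chromosome in female cells, stood at 1.78 CPM in KO replicate 5, labelled female, against 273 to 407 CPM in the other 6 females and 1.29 to 1.73 CPM in the 3 males. The comparisons of the members, the other gene lists and the cell markers are therefore also given without that mouse. The tissue label fits its markers: all 6 alveolar type 2 and all 6 alveolar type 1 marker genes were detected, at summed levels of 23204 to 28602 CPM and 4240 to 5333 CPM.

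An imprinted gene is transcribed mainly from the copy inherited from 1 parent, and the choice is marked by DNA methylation set in the germ line. Many imprinted genes act on growth before and shortly after birth, those active on the paternal copy often promoting it and those active on the maternal copy often restraining it, and most are turned down as organs mature. Igf2, Peg3, Peg10, Dlk1 and Plagl1 are active on the paternal copy. H19, Meg3, Rian and Cdkn1c are active on the maternal copy, as is Grb10 in most tissues outside the brain.

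H19 is an RNA without a protein product, and its transcript carries the precursor of a microRNA. Its mature forms are shown because they are the known small RNA product of the tested member with the lowest male to female ratio below. The sequences are those of RefSeq (GRCm38.p6), with the seed, bases 2 to 8, in capitals.
mmu-miR-675-5p (chr7:142577112-142577133, minus strand): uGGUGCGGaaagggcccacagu
mmu-miR-675-3p (chr7:142577078-142577099, minus strand): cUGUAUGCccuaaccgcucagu
The 2 seeds differ, and neither is shared with the other mature microRNAs that lie inside these 10 genes. The mRNA libraries do not measure mature microRNAs, and the precursor gene Mir675 had 0 counts over all mice.

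On chromosome 12, Dlk1 and Meg3 are neighbours in 1 imprinted cluster and differed strongly in level in these lungs. The 250 bases before the start of each are shown for that reason, beside those of Grb10, the member with the highest level in CPM. All are from RefSeq (GRCm38.p6), 5′ to 3′ in the direction of the gene. For Meg3 and Grb10, which have several RefSeq starts, it is the most upstream one. The bases after these Meg3 and Grb10 starts were not found in a GENCODE M21 transcript of the gene. The Grb10 window lies inside the Grb10 gene as GENCODE M21 places it, though in none of its exons. Capitals mark matches to the TATA box letters TATAAA, searched on both strands.
Dlk1 (chr12:109452573-109452822, plus strand): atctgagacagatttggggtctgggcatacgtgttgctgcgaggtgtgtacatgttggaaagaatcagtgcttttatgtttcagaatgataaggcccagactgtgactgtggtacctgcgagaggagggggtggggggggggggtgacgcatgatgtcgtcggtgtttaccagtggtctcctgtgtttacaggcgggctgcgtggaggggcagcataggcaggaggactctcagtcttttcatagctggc
Meg3 (chr12:109540746-109540995, plus strand): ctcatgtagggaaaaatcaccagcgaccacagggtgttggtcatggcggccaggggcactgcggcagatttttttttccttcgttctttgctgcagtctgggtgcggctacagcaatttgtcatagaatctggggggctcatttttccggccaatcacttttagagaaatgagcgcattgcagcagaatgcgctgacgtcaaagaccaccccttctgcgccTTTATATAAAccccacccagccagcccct
Grb10 (chr11:12037421-12037670, minus strand): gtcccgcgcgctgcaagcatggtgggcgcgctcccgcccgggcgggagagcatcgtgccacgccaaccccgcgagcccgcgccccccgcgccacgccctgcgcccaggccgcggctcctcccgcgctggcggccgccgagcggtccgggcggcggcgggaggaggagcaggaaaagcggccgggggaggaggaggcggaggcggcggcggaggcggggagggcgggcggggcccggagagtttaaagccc
The Meg3 window held 2 overlapping matches to TATAAA, 1 on each strand, beginning 29 and 25 bases before the start. Such a match was found in 12.4% of the 32851 windows in the table, and in neither of the other windows shown. The count of CG pairs was 40 in the Grb10 window, 10 in that of Meg3 and 8 in that of Dlk1, where the median over all windows was 6. A match is a description of the letters and was not tested for binding.

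Levels between genes were compared per length, as CPM per kilobase of annotated exon. Cdkn1c, an inhibitor of the cell cycle, stood highest at 14.9 ± 1.85 CPM per kilobase (SD, n = 10 mice). Grb10, an adaptor protein that dampens signalling from the insulin and IGF1 receptors, followed at 7.50 ± 0.586. Plagl1, a zinc finger transcription factor, stood at 4.66 ± 0.850, and the growth factor gene Igf2 at 2.53 ± 0.261. These 4 were followed by Peg3, a zinc finger protein gene, at 1.66 ± 0.245, and the ranges of neighbours in this order did not overlap down to it.
Below them, Peg10, derived from a retrotransposon, stood at 0.690 ± 0.188, Meg3 at 0.547 ± 0.0589, H19 at 0.441 ± 0.170 and Rian at 0.345 ± 0.0421. The ranges of neighbours among these last 4 overlapped, so these neighbours do not differ beyond the spread between mice, while each mouse value of Peg10 and of Meg3 lay above each of Rian. Dlk1 came last at 0.0217 ± 0.0313. The exon length is that of all annotated isoforms together, so a gene that uses a short isoform stands too low on this scale.

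**Figure D1:**
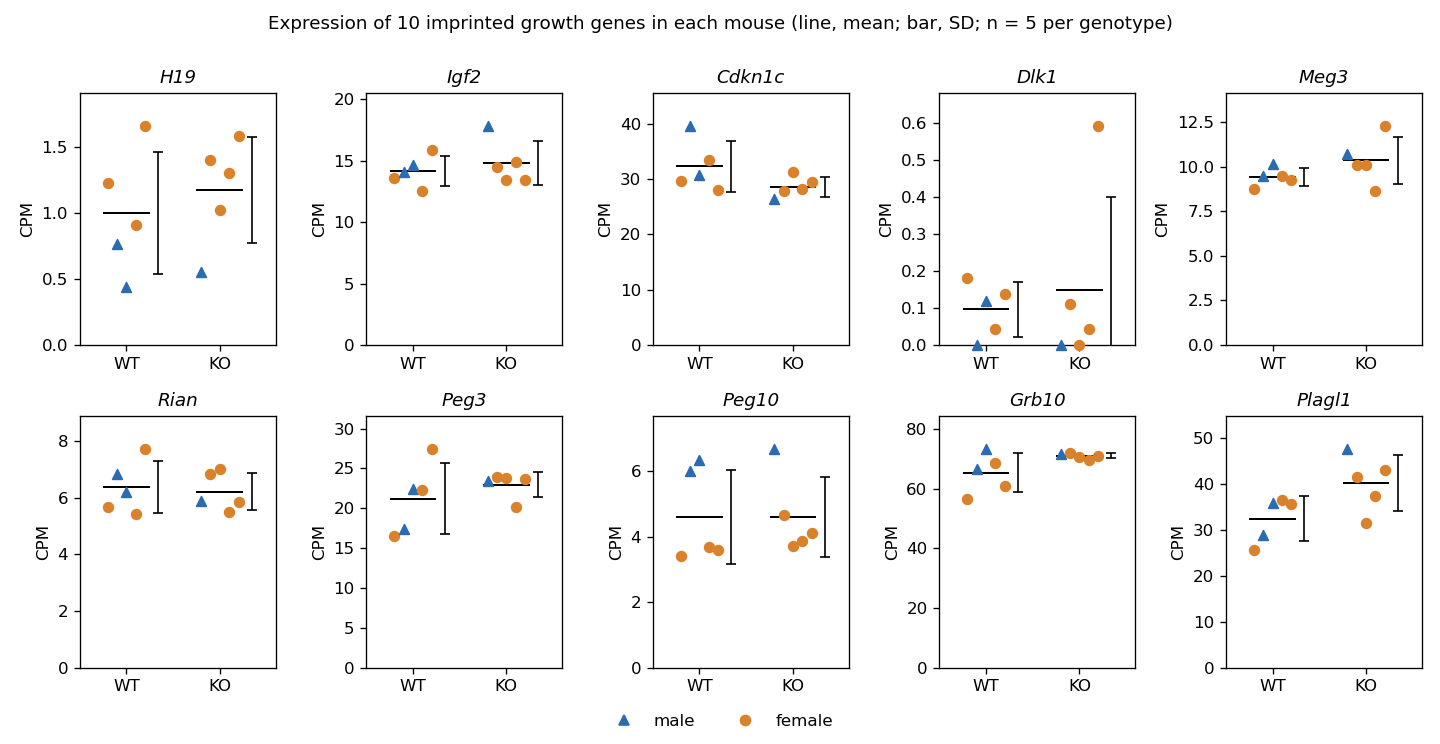
Expression of each gene in each mouse, as CPM on a linear axis from 0, by genotype, with males as triangles and females as circles (line, mean, and bar, SD, drawn to 0 at the lowest; n = 5 per genotype). Genotypes overlap in all 10 panels, while the 3 males lie above the 7 females for Peg10 and below them for H19.

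The first locus lies on distal chromosome 7, where H19 and Igf2 share enhancers and an imprinting control region, with Cdkn1c in a neighbouring domain. H19 (ENSMUSG00000000031, a lincRNA gene; 142575529 to 142578143, minus strand) measured 0.551, 1.40, 1.02, 1.30 and 1.58 CPM in KO replicates 1 to 5. In WT replicates 1 to 5 it measured 1.22, 0.762, 0.441, 0.911 and 1.66 CPM, from 11 to 48 counts over all mice. The 3 lowest values were those of the 3 males, and the genotypes overlapped.
Igf2 (ENSMUSG00000048583, protein coding; 142650766 to 142666816, minus strand) measured 17.8, 14.5, 13.4, 14.9 and 13.5 CPM in KO and 13.6, 14.1, 14.7, 12.5 and 15.9 CPM in WT replicates 1 to 5. The KO male was the highest mouse, and the other 9 lay close together.
Cdkn1c (ENSMUSG00000037664, protein coding; 143458339 to 143461050, minus strand) measured 26.5, 27.8, 31.2, 28.2 and 29.5 CPM in KO and 29.6, 39.6, 30.7, 33.5 and 28.05 CPM in WT replicates 1 to 5. WT replicate 2, a male, stood highest. That library also held the most ribosomal RNA (CT010467.1, 55884 CPM), and the library of KO replicate 1 the least (11567 CPM). Cdkn1c overlaps the antisense gene Gm44732, which measured 18.9 to 27.1 CPM, and whether reads were counted by strand is not stated, so its reads cannot be told apart from those of this partner.

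The second locus is the cluster on chromosome 12. Dlk1 (ENSMUSG00000040856; 109452823 to 109463336, plus strand) encodes a membrane protein of progenitor cells. It had 0, 3, 0, 1 and 15 counts in KO and 4, 0, 3, 1 and 4 counts in WT replicates 1 to 5. Of the 10 mice, 5 thus had at least 3 counts, and the 3 mice at 0 counts could hold up to 0.119, 0.14 and 0.135 CPM before TMM factors.
Meg3 (ENSMUSG00000021268, a lincRNA gene; 109541001 to 109571726, plus strand) ranged from 8.63 to 12.3 CPM and Rian (ENSMUSG00000097451, a processed transcript; 109603940 to 109661716, plus strand), the host of a large group of small nucleolar RNAs, from 5.42 to 7.73 CPM. Both RNAs, which lack a protein product, were thus detected in each mouse at 125 counts or more, while their paternal neighbour stayed near the floor. Meg3 overlaps the antisense gene Gm26906, at a mean of 29.4 counts per mouse.

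Of the 4 genes outside these loci, Peg10 (ENSMUSG00000092035; chromosome 6, 4747306 to 4760517, plus strand) measured 6.69, 4.65, 3.71, 3.86 and 4.10 CPM in KO replicates 1 to 5. In WT replicates 1 to 5 it measured 3.40, 6.00, 6.34, 3.69 and 3.59 CPM. The 3 highest values were those of the 3 males.
Peg3 (ENSMUSG00000002265; chromosome 7, 6703892 to 6730431, minus strand) measured 20.1 to 23.9 CPM in KO and 16.6 to 27.5 CPM in WT mice. The WT mice enclosed the KO mice, with both the lowest and the highest value. The correlation of its log2 CPM with the library total did not pass after adjustment (r 0.70, permutation p 0.0233, rho 0.64, permutation p 0.0541, adjusted p 0.329 and 0.416 over 180 relations), and r was 0.87 without the 2 mice farthest from the median total. Cdkn1c stood the other way to the library total (r -0.58, permutation p 0.0756, rho -0.77, permutation p 0.0126, adjusted p 0.389 and 0.283), with r of -0.61 without those 2 mice. Plagl1 had r of 0.63 (permutation p 0.0520) and rho of 0.64 (permutation p 0.0548) with it, adjusted p 0.347 and 0.416, and r of 0.81 without those 2 mice. Igf2 had r of 0.55 (permutation p 0.104) and rho of 0.65 (permutation p 0.0498) with it, adjusted p 0.466 and 0.416, and r of 0.40 without those 2 mice. With genotype and sex removed r with the total was 0.76 for Plagl1, 0.72 for Peg3, 0.66 for Igf2 and -0.64 for Cdkn1c. It was 0.64 for Peg10, whose r over all mice was 0.15. For Grb10, Meg3, Rian and H19 it was 0.11 to 0.41. With genotype and sex removed r with ribosomal RNA was 0.73 for Cdkn1c, -0.64 for Plagl1 and -0.56 for Peg3. It was -0.46 to 0.43 for the other members. Over all mice no relation to ribosomal RNA passed (lowest adjusted permutation p 0.389 for r). The part of library size and of ribosomal RNA in the values of these genes was not tested.
Grb10 (ENSMUSG00000020176; chromosome 11, 11930508 to 12038683, minus strand) measured 71.8, 71.9, 70.7, 69.8 and 70.9 CPM in KO and 56.7, 66.7, 73.4, 68.7 and 61.1 CPM in WT replicates 1 to 5. The 5 KO mice lay within a narrow band, and 1 WT mouse stood above it.
Plagl1 (ENSMUSG00000019817; chromosome 10, 13060504 to 13131694, plus strand) measured 47.7, 41.5, 31.7, 37.4 and 43.1 CPM in KO and 25.6, 28.8, 36.0, 36.5 and 35.7 CPM in WT replicates 1 to 5. Of the KO mice, 4 stood above each WT mouse and KO replicate 3 lay among them.

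Between KO and WT mice, 0 of the 9 tested members passed the threshold (Benjamini-Hochberg adjusted p below 0.05, edgeR quasi-likelihood, sex as a covariate), where 0.0222% of the 18024 tested genes did (0.00555% higher and 0.0166% lower in KO). None passed with the DESeq2 Wald test either. At an unadjusted p under 0.05 stood 2 members, Plagl1 and Grb10, both higher in KO, beside 17% of all tested genes in either direction and, in KO, 8.92% higher and 8.04% lower. Without KO replicate 5, 0 of the 9 members did, beside 1252 genes higher and 1141 lower of the 18094 then tested. Non-overlapping ranges were found for 0 members and 1.88% of all tested genes. The median log2 fold change was 0.10 over the 9 members and -0.0027 over all tested genes, and 7 of the 9 were above 0, as were 49.3% of all tested genes.
Plagl1 averaged 40.3 ± 6.08 CPM over the KO and 32.5 ± 4.99 over the WT mice (SD, 5 mice each), an edgeR log2 ratio of 0.33 ± 0.12 (SE; adjusted p 0.233). For Grb10 the means were 71.0 ± 0.859 and 65.3 ± 6.54 CPM (SD, 5 mice each), an edgeR log2 ratio of 0.15 ± 0.06 (SE; adjusted p 0.244). Neither difference passed the test.
Cdkn1c stood at 28.6 ± 1.80 CPM over the KO and 32.3 ± 4.53 over the WT mice (SD, 5 mice each; edgeR log2 ratio -0.15 ± 0.09 SE, adjusted p 0.389). Igf2 averaged 14.8 ± 1.80 and 14.2 ± 1.24 CPM (SD, 5 mice each; edgeR log2 ratio 0.09 ± 0.08 SE, adjusted p 0.604). H19, Peg3, Peg10, Meg3 and Rian had log2 fold changes from -0.04 to 0.17, with edgeR adjusted p from 0.394 to 0.970. These differences were within the spread between mice.
Of 18 lists of cell markers 2 had an unadjusted exact p under 0.05 between the genotypes. The 7 pericyte markers, all detected, summed to 623 to 727 CPM in KO and 533 to 656 CPM in WT mice (exact permutation p 0.0317), and the 6 alveolar type 2 markers to 23204 to 26369 and 24077 to 28602 CPM (exact permutation p 0.0397). Both had an adjusted p of 0.333 over 18 lists. Across the 10 mice the correlation of Grb10 with the pericyte sum did not pass after adjustment (r 0.80, permutation p 0.00282, rho 0.60, permutation p 0.0733), and r was 0.68 without the 2 mice farthest from the median sum. The adjusted values over 180 relations were 0.225 and 0.447. With genotype and sex removed r was 0.91, and Grb10 then had r of 0.87 with the sum of 8 endothelial markers. Grb10 also then had r of -0.81 with the ciliated, -0.74 with the cardiac muscle and -0.73 with the skeletal muscle sum. Values of r with genotype and sex removed were not tested. Plagl1 had a negative correlation with the alveolar type 2 sum that did not pass either (r -0.81, permutation p 0.0042, rho -0.77, permutation p 0.0125), and r was -0.57 without the 2 mice farthest from its median; the adjusted p were 0.225 and 0.283. Grb10 did likewise (r -0.72, permutation p 0.00983, rho -0.85, permutation p 0.00268), with adjusted p of 0.295 and 0.242, and r of -0.58 without those 2 mice. With genotype and sex removed r with this sum was -0.64 for Plagl1 and -0.46 for Grb10. These 2 genes were not alone: Meg3 had r of -0.77 (permutation p 0.005, adjusted p 0.225) and Peg3 r of -0.69 (permutation p 0.0268, adjusted p 0.329). Without those 2 mice r was -0.77 for Meg3 and -0.17 for Peg3. For H19 and Cdkn1c r was above 0, at 0.11 and 0.58. With KO replicate 5 left out the genotypes gave an exact permutation p of 0.0556 for the pericyte and 0.0714 for the alveolar type 2 sum (adjusted p 0.5 and 0.5). Among the other lists, the sum of 9 proliferation markers had r of -0.80 with Peg3 and 0.75 with Cdkn1c (permutation p 0.00487 and 0.00846, adjusted p 0.225 and 0.295). With Igf2 its r was -0.66 (permutation p 0.0361, adjusted p 0.329), and -0.84 with genotype and sex removed. Cdkn1c had rho of -0.83 with the cardiac muscle sum (permutation p 0.00475, adjusted p 0.242). Other relations with an unadjusted p under 0.05 are not listed here. The lowest adjusted permutation p over the 180 relations was 0.225 for r and 0.242 for rho. Fewer cells of a type and less RNA per cell cannot be told apart in whole lung, and the part of these cells in the values of these genes was not tested.

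**Figure D2:**
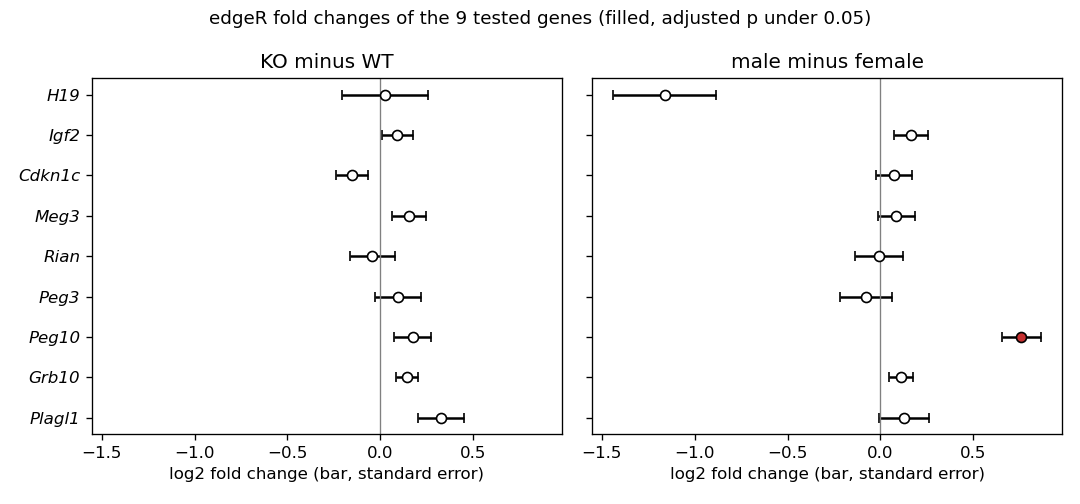
Log2 fold changes (points) with standard errors (bars) of the 9 tested genes between the genotypes, left, and the sexes, right, from 1 edgeR fit. Peg10 between the sexes, at 0.76, is the filled point that passed an adjusted p under 0.05, and H19 lies at -1.16 without passing.

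Peg10 was higher in males than in females, and it was the member that passed in this comparison. It averaged 6.34 ± 0.344 CPM in 3 males and 3.86 ± 0.413 CPM in 7 females (SD), which is 1.64 times as much. edgeR put the log2 ratio at 0.76 ± 0.11 (SE) with an adjusted p of 0.00859, with all 3 males above all 7 females. Among all tested genes 0.583% passed in either direction, 0.449% higher and 0.133% lower in males. At an unadjusted p under 0.05 stood Peg10 as the 1 member higher and H19 as the 1 member lower in males, where 15.1% of tested genes did, 7.34% higher and 7.79% lower.
The difference was present in both genotypes. In WT mice the 2 males had 6.00 and 6.34 CPM and the 3 females 3.40 to 3.69 CPM, a mean log2 difference of 0.78. In KO mice the 1 male had 6.69 CPM and the 4 females 3.71 to 4.65 CPM, a mean log2 difference of 0.71. Without KO replicate 5, the female of low Xist, the log2 fold change was 0.76 (edgeR adjusted p 0.0112), and with 4.10 CPM that mouse lay among the females. Without KO replicate 1, the 1 KO male, the log2 fold change was 0.79 and no longer passed (edgeR adjusted p 0.110).
Sgce, which lies head to head with Peg10 and is imprinted with it, measured 65.8 ± 0.213 CPM (SD) over males and 64.6 ± 2.89 over females (edgeR log2 ratio 0.02 ± 0.05 SE, adjusted p 0.912). Its log2 ratio was 0.0057 without KO replicate 5 (edgeR adjusted p 0.975). Whether its ratio differs from that of Peg10 was not tested.

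H19 was the other member whose values separated by sex, in the opposite direction. It averaged 0.585 ± 0.163 CPM in 3 males and 1.30 ± 0.274 CPM in 7 females (SD), an edgeR log2 ratio of -1.16 ± 0.28 (SE; adjusted p 0.0756), and missed the threshold. Each of the 3 males, at 11 to 16 counts, lay below each of the 7 females, at 21 to 48 counts. Its adjusted p was 0.0391 by the DESeq2 Wald test and 0.0466 without WT replicate 4, and ran from 0.0391 to 0.307 over the alternatives. Those 2 settings called 436 and 195 genes between the sexes, where the main fit called 105. Without KO replicate 5 the log2 fold change was -1.12 (edgeR adjusted p 0.108), and at 1.58 CPM that mouse had the second highest value of the 10. Mean log2 differences between males and females were -0.98 in WT and -1.14 in KO mice.
Ranges that do not overlap between the sexes were thus seen for 2 of 9 members, where 4.81% of all tested genes have them. The other 7 members had log2 fold changes from -0.08 to 0.16 between males and females, with edgeR adjusted p from 0.420 to 0.986. When KO replicate 5 was left out these were -0.07 to 0.15, with edgeR adjusted p from 0.472 to 0.969. Leaving out a mouse cannot make separate ranges overlap, so this does not check the sex label of that mouse. Its H19 of 1.58 CPM and Peg10 of 4.10 CPM lay within the ranges of the other females. Counted as a male, it would make the sexes overlap for both genes.
Of the 18 marker lists 1 separated the sexes: the 6 alveolar type 1 genes, all detected, summed to 4752.1 to 5333 CPM in males and 4240 to 4751.5 CPM in females (exact permutation p 0.00833, the smallest that 120 splits allow, adjusted p 0.15). The 5 haemoglobin and red cell genes summed to 13038 to 19475 CPM in males and 11513 to 14049 CPM in females (exact permutation p 0.0333, adjusted p 0.3). Without KO replicate 5 the exact permutation p were 0.0238 and 0.0476 (adjusted p 0.429 and 0.429). Since both genes fall into separate groups by sex, their relation to these sums is given only as r after genotype and sex were removed, with no test. For Peg10 that r was -0.63 with the alveolar type 1 sum and 0.04 with the haemoglobin sum, and for H19 it was 0.06 and 0.48. With the sum of 7 smooth muscle markers, all detected, r was 0.71 for H19. The smooth muscle sum was 921 to 994 CPM in males and 924 to 1276 CPM in females, and the part of these cells in the values of H19 and Peg10 was not tested. With 3 males, sex and anything else that these males share cannot be told apart.

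Covariation was then measured for the 36 pairs of the 9 tested members, as the correlation of log2 CPM over the mice. Library total and ribosomal RNA, whose r with several members is given above, were not removed. Imprinted growth genes are known to be regulated together in young tissue, and Plagl1 is described as a regulator of several of them. In these adult lungs 22 of the 36 pairs had r above 0, and the median r was 0.09, where the median over the 162423276 pairs of tested genes was 0.00 and its quartiles -0.29 and 0.29. No pair passed after adjustment over the 36 (lowest adjusted permutation p 0.287 for Pearson's r and 0.276 for Spearman's rho). At an unadjusted permutation p under 0.05 stood 3 pairs by r and 5 by rho, and 7.19% of all pairs of tested genes had an absolute r as large as the weakest of the 3. The matching share for rho was not computed.
The pair with the largest absolute r, H19 and Peg10, falls into separate groups by sex, so it is given within the 7 females only. There r was 0.30 (exact permutation p 0.523) and rho 0.25 (exact permutation p 0.595), with adjusted p of 0.818 and 0.824, and r was 0.21 without KO replicate 5. The inverse order of these 2 genes was thus seen between the sexes and was not detectable among females. The 3 males are too few for a correlation.
Plagl1 made up the other 2 pairs, which were singled out after their values were seen. With Grb10 r was 0.68 (permutation p 0.0319, adjusted p 0.388) and rho 0.66 (permutation p 0.0427, adjusted p 0.307). Here r was 0.60 without the 2 mice farthest from the median of Plagl1's partner, and 0.45 once genotype and sex were removed. With Peg3 r was 0.67 (permutation p 0.0323, adjusted p 0.388) and rho 0.38 (permutation p 0.278, adjusted p 0.594), and r was 0.71 once genotype and sex were removed. Without WT replicates 1 and 2, which had the lowest values of both genes, r over the other mice was -0.03, so the relation over all mice rests on those 2.

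**Figure D3:**
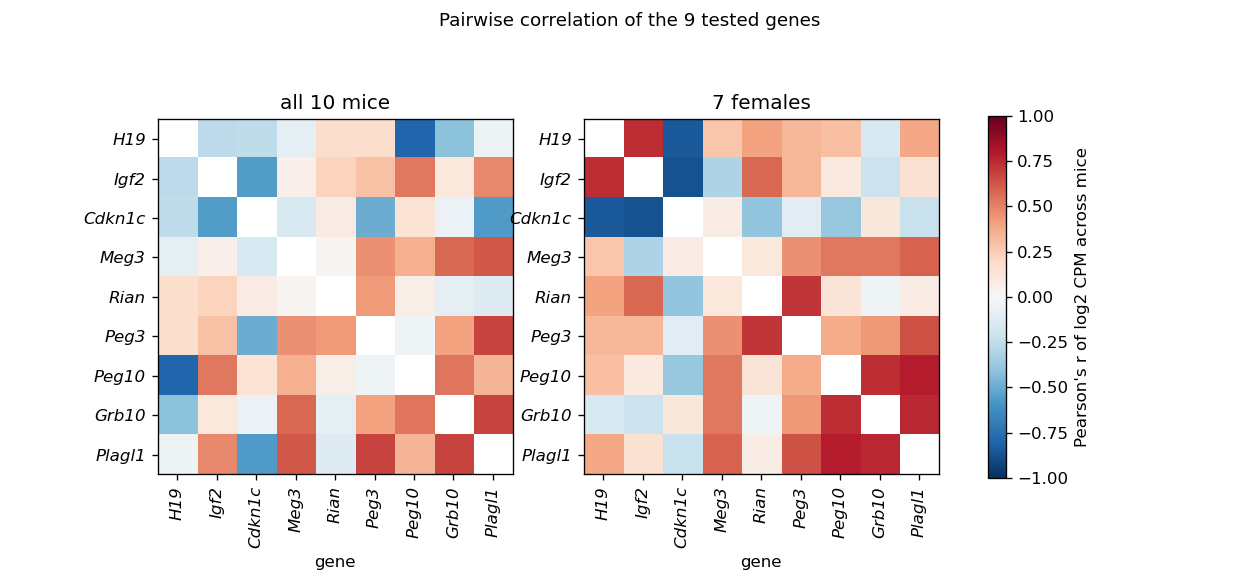
Pearson's r of log2 CPM for the 36 pairs of tested genes over all 10 mice, left, and over the 7 females, right, from -1 (blue) to 1 (red). Over all mice H19 and Peg10 are the darkest blue pair, and over females this pair is pale red, at 0.30.

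Pairs within a locus were examined next. Dlk1 was too low for a correlation with either neighbour. Meg3 and Rian, transcribed in the same direction from the maternal copy, had r of 0.02 (permutation p 0.961, adjusted p 0.961) and rho of 0.19 (permutation p 0.607, adjusted p 0.815), and r was 0.05 without the 2 mice farthest from the median of Meg3. Over the 7 females r was 0.10 (exact permutation p 0.842), and 0.56 without KO replicate 5 (exact permutation p 0.225). Igf2 and Cdkn1c, on distal chromosome 7, had a negative r that did not pass after adjustment: r was -0.56 (permutation p 0.102, adjusted p 0.459) and rho -0.71 (permutation p 0.0272, adjusted p 0.276). With genotype and sex removed r was -0.80, and without KO replicate 1 and WT replicate 4, the mice farthest from the median of Igf2, it was -0.32.
H19 pairs were again taken within the 7 females, a choice made after its values were seen. With Igf2, r was 0.74 (exact permutation p 0.0579, adjusted p 0.298) and rho 0.75 (exact permutation p 0.0663, adjusted p 0.298). Without KO replicate 5 r was 0.95 (exact permutation p 0.00556 over 6 mice), and without the 2 females farthest from the median of H19 it was 0.21, so this relation rests on few mice. With Cdkn1c, r was -0.84 (exact permutation p 0.0149, adjusted p 0.268) and rho -0.82 (exact permutation p 0.0341, adjusted p 0.246), and r was -0.62 without the 2 farthest females. None of these passed after adjustment.
Other pairs of the 7 females had an unadjusted exact p under 0.05 by r or rho, and they too were noted after their values were seen. The share of all pairs of tested genes that reach such a p in 7 females was not computed. The number of these pairs is therefore a description. Peg10 with Grb10 had r of 0.73 (exact permutation p 0.0526, adjusted p 0.298) and rho of 0.96 (exact permutation p 0.00278, adjusted p 0.1), the lowest adjusted p of the female pairs. Peg10 with Plagl1 had r of 0.78 (exact permutation p 0.0429, adjusted p 0.298) and rho of 0.86 (exact permutation p 0.0238, adjusted p 0.246). Grb10 with Plagl1 had r of 0.76 (exact permutation p 0.0403, adjusted p 0.298) and rho of 0.75 (exact permutation p 0.0663, adjusted p 0.298). Igf2 with Cdkn1c had r of -0.87 (exact permutation p 0.0131, adjusted p 0.268) and rho of -0.86 (exact permutation p 0.0238, adjusted p 0.246). Peg3 with Rian had r of 0.71 (exact permutation p 0.0542, adjusted p 0.298) and rho of 0.82 (exact permutation p 0.0341, adjusted p 0.246). Without the 2 females farthest from the median of the first gene named, r was 0.92, 0.81, 0.38, -0.96 and 0.84 for these 5 pairs in turn. Leaving out KO replicate 5 gave 0.71, 0.77, 0.74, -0.90 and 0.77. No pair passed after adjustment within females.
Over the 7 females the median r of the 36 pairs was 0.29, where that over all pairs of tested genes was 0.00, and 26 pairs were above 0. With genotype and sex removed from all 10 mice the median was 0.13. Pairs of members that are both active on the paternal copy (6 pairs) had a median r of 0.41 over all mice, pairs both active on the maternal copy (10 pairs) one of -0.08, and mixed pairs (20) one of 0.12. Each of these groups holds pairs with H19 or Peg10, which separate by sex, and the medians by parental copy were not repeated with sex removed. Genes, and pairs that share a gene, are not independent replicates, so these medians are descriptions.

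**Figure D4:**
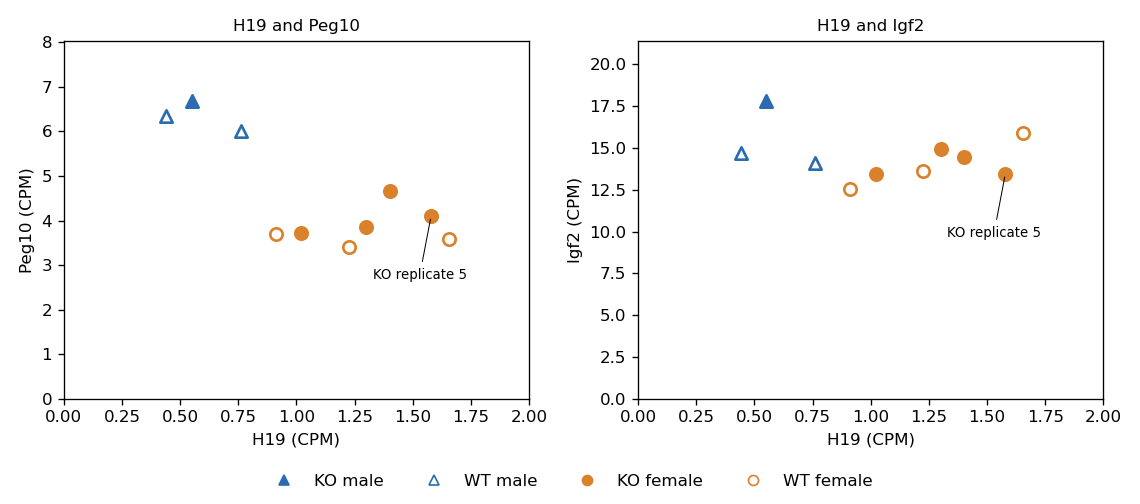
H19 against Peg10, left, and against Igf2, right, as CPM per mouse on linear axes, with males as triangles, females as circles, KO filled and WT open. The 3 males form a group of low H19 (0.441 to 0.762 CPM) and high Peg10 (6.00 to 6.69 CPM), and KO replicate 5 lies with the females in the left panel.

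For the 7 members that do not separate by sex, the tested genes outside the list with the most similar pattern over the 10 mice had r from 0.856 to 0.991. They were Fam126b and Nbeal1 for Plagl1 (r 0.991 and 0.986), Hmbox1 and Klf7 for Grb10 (r 0.973 and 0.973) and Ddx42 and March7 for Peg3 (r 0.965 and 0.936). For Igf2 they were Phykpl and Cycs (r 0.943 and 0.941), and for Cdkn1c Mff and Parpbp (r 0.941 and 0.939). Meg3 was closest to Gm27241 and Gm42735 (r 0.967 and 0.942) and Rian to Gm12599 and Nxnl2 (r 0.921 and 0.856). Each is the best of 18015 genes over 10 points, and the value is a description. The highest mean r to the 9 members was that of Slc12a2 (0.419), followed by Txlng, Zbtb18, Gm38372 and Rsad2 (0.414 to 0.418).

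Other imprinted genes were taken from a list of 67, of which 54 were tested. Between the genotypes 0 of the 54 passed by edgeR's quasi-likelihood test, with 6 higher and 3 lower in KO at an unadjusted p under 0.05, near the 17% of all tested genes that did in either direction. Their median log2 fold change was -0.01. Leaving out KO replicate 5 gave 3 higher and 3 lower, beside 1252 and 1141 of the 18094 genes then tested. The smallest p was that of Ppp1r9a, which encodes a neuronal scaffold protein and lies beside Peg10, at 78.9 ± 7.28 CPM over the KO and 65.7 ± 6.40 over the WT mice (SD, 5 mice each; edgeR log2 ratio 0.27 ± 0.08 SE, adjusted p 0.151). Ube3a, a ubiquitin ligase gene, and Kcnq1, a potassium channel gene, followed with log2 fold changes of 0.28 (edgeR adjusted p 0.208) and -0.16 (edgeR adjusted p 0.222).
Between the sexes 1 of the 54 passed, Nnat, a small membrane protein gene active on the paternal copy, as Peg10 is. It rose to 22.0 ± 2.78 CPM in 3 males from 15.4 ± 1.11 CPM in 7 females (SD; edgeR log2 ratio 0.50 ± 0.09 SE, adjusted p 0.0202), with all males above all females. The mean log2 difference was 0.41 in WT and 0.63 in KO mice. It no longer passed without KO replicate 1 (edgeR adjusted p 0.223), KO replicate 2 (0.0505) or WT replicate 2 (0.0808), and without KO replicate 5 its edgeR adjusted p was 0.0384. Unadjusted p were under 0.05 for 4 of the 54 with higher and 7 with lower values in males, beside 7.34% and 7.79% of all tested genes. Without KO replicate 5 they were 3 and 5 of the 54, beside 1290 and 1337 of the 18094 genes then tested.

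The IGF system, through which Igf2 acts and which Grb10 restrains, was a list of 24 genes, 22 of them tested. None passed between the genotypes or the sexes by edgeR's quasi-likelihood test. At an unadjusted p under 0.05 stood 5 higher and 4 lower in KO, beside 8.92% and 8.04% of all tested genes. Without KO replicate 5 it was 1 higher and 3 lower, beside 1252 and 1141 of the 18094 genes then tested. In males 2 were higher and 3 lower, beside 7.34% and 7.79%, and without that mouse 2 and 2, beside 1290 and 1337 of the 18094. Igfbp6, a binding protein with a preference for IGF2, had the smallest p between the genotypes, at 199 ± 22.2 CPM over the KO and 236 ± 16.6 over the WT mice (SD, 5 mice each; edgeR log2 ratio -0.25 ± 0.08 SE, adjusted p 0.179). The receptor Igf1r and Igfals, a carrier of IGF in blood, had log2 fold changes of 0.24 (edgeR adjusted p 0.209) and -0.50 (edgeR adjusted p 0.218). Igf2r, which removes IGF2 and is itself imprinted, measured 90.6 ± 8.38 and 78.2 ± 8.12 CPM (edgeR log2 ratio 0.22 ± 0.08 SE, adjusted p 0.222). Between the sexes the smallest p were those of Pappa2, a protease of IGF binding proteins (log2 fold change 0.76, edgeR adjusted p 0.121), Igfals (-0.66, edgeR adjusted p 0.165) and Igf2bp2, which binds Igf2 mRNA (0.20, edgeR adjusted p 0.219).
Of 20 genes for setting or keeping imprints 17 were tested, and 0 passed in either comparison by edgeR's quasi-likelihood test. At an unadjusted p under 0.05 stood 4 higher in KO, beside 8.92% of all tested genes, and 4 higher in males, beside 7.34%. Of the 17, 16 had a log2 fold change above 0 in KO, as had 49.3% of all tested genes, with a median of 0.10. Without KO replicate 5, where 18 of the list were tested, 3 were higher in KO at that p, 15 were above 0 and the median was 0.09, and 4 were higher in males. Of the 18094 genes then tested 1252 were higher in KO at that p, 8881 were above 0, and 1290 were higher in males. Arid4a and Arid4b, chromatin proteins, and Dnmt3a, a DNA methyltransferase, had the smallest p between the genotypes, with log2 fold changes of 0.20, 0.16 and 0.19 (edgeR adjusted p 0.144, 0.221 and 0.168). The DESeq2 Wald test gave Arid4a an adjusted p of 0.0457, and by that test 346 of all tested genes passed between the genotypes, against 4 by edgeR. Between the sexes the smallest p were those of Yy1, a zinc finger factor with binding sites in several imprinted loci (log2 fold change 0.17, edgeR adjusted p 0.155), Arid4a (0.17, edgeR adjusted p 0.193) and Arid4b (0.16, edgeR adjusted p 0.268). Of the genes named between the sexes from the IGF system and this list, none passed without KO replicate 5 (edgeR adjusted p 0.151 to 0.289).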

How the data were processed

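The authors deposited estimated counts per gene, not scaled between samples. The submitters' processing notes name FastQC, MultiQC, STAR 2.6.0, Salmon 0.9.1, mm10 and GRCm38 without roles, and the labels' protocols name stranded mRNA libraries and single reads of 50 bases. Annotation, filters and use of strand are not given in the sources used here. A share of 30.1% of values above 0 was not whole (off by over 0.01), so all were rounded. Of 47333 identifiers 47281 matched GENCODE M21 (GRCm38), which gave symbols, coordinates and exon lengths. No mitochondrial gene is in the table as received, and 0 columns were left unmapped.

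KO and WT mice, and males and females, were compared by edgeR's quasi-likelihood test (edgeR 4.0.16, R 4.3.3, robust, TMM, sex and genotype additive, Benjamini-Hochberg over 18024 genes kept by filterByExpr, minimum count 10 and total 15). SE is the absolute log2 fold change over the square root of F. DESeq2 1.42.0 and limma 3.58.1 were alternatives. Log2 CPM used a prior count of 2. Correlations carry p from 100000 permutations, or all orders below 10 mice, two-sided. The scripts were tested on simulated data. The labels name 1 sample per title and no animal numbers, so p-values measure the spread between these samples. Replicate numbers follow the order of samples and pair none.

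The members and lists were chosen with earlier results of these data known. Named were all members, same-locus pairs, any called gene or else the 3 smallest p per list and comparison, and the most similar genes. The female-only H19 pairs, the female-only median without KO replicate 5, the values within genotypes, and the list and marker values without KO replicate 5 were added after seeing the data. The other settings tried were DESeq2 size factors, no filter, a mean CPM of at least 1, no robust dispersion, no second covariate, females alone, an adjusted p under 0.1, a prior count of 0.5 and leaving out each mouse. A floor of 3 counts reflects counting alone, as PCR copies were not marked.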

Additional observations from a re-analysis of the deposited data

Results flagged for a closer look

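Dixon's test was applied to the CPM of the 10 members, Bpifb1 and Xist within the KO mice, the WT mice and the females, 36 sets in all. Of these 5 stood out, where about 1.8 would by chance if the values in each set were normally distributed. The sets share mice, Dlk1 was near the floor, and the female set of Bpifb1 mixes genotypes. The KO and WT sets of Xist mix sexes, so the 1.8 is only a rough guide.

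Peg3 in KO replicate 4 was 20.1 CPM, where the remaining KO mice had 23.4 to 23.9 CPM. KO replicate 5 stood apart in 4 of the 5 sets, with its 1 Dlk1 value counted in both the KO and the female set. Its Meg3, at 12.3 CPM, was above the 8.63 to 10.1 CPM of the other females. Its Dlk1, at 0.592 CPM (15 counts), exceeded both the remaining KO mice (0 to 0.111 CPM) and the remaining females (0 to 0.181 CPM). Its Xist, at 1.78 CPM, was below the 273 to 407 CPM of the other females.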

How the results depend on the processing

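The 4 genes that passed between the genotypes became 57 at an adjusted p under 0.1, 50 with no filter, 2 by limma-voom and 346 by DESeq2, and 2 to 18 without single mice; in none of these was a member called. The 105 genes between the sexes became 351, 197 and 436 at an adjusted p under 0.1, with no filter and by DESeq2, 41 with no genotype covariate, and 0 to 195 without single mice. The 0 came without KO replicate 1, by edgeR, with 1919 genes at an unadjusted p under 0.05. Bpifb1 missed the threshold by limma-voom (log2 fold change -6.715), in females alone (-6.42) and without 7 of the single mice, over which it ran from -6.966 to -6.346.

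Peg10 kept its direction between the sexes in 19 alternatives and missed the threshold in 1, without KO replicate 1. Without single mice the sign turned for log2 fold changes near 0: between the genotypes for H19 (-0.1193 to 0.2042), Peg3 (-0.007514 to 0.2329) and Rian (-0.1135 to 0.07113), and between the sexes for Peg3 (-0.1614 to 0.034), Rian (-0.0661 to 0.08817, and 0.003804 with no genotype covariate), Plagl1 (-0.009399 to 0.2326), Cdkn1c (-0.06186 to 0.2072) and Sgce (-0.003261 to 0.03075). It also turned for the correlation of Meg3 and Rian (-0.1813 to 0.2612). The median r of the 36 pairs was 0.2907 in females, 0.256 in females without KO replicate 5, and 0.01449 to 0.1549 without single mice. The cause was not tested. No paired analysis was possible because the labels give no replicate numbers shared between the genotypes. At 11 to 48 counts H19 is the tested member most limited by depth.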
